A study of Meleagris gallopavo with 8 samples.

Results

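The 8 genes described here encode enzymes of glycolysis in turkey breast muscle: the hexokinases HK1 and HK2, glucose-6-phosphate isomerase (GPI), the phosphofructokinases PFKM, PFKL and PFKP, aldolase C (ALDOC) and a pyruvate kinase (PKM2, an older symbol of the gene now called PKM). They were chosen by name. A transcript counted when its gene name equalled one of these symbols and when it fell in one of the following classes. Exact transcripts matched all introns of a reference transcript, though their ends can differ. Contained ones lay inside a reference transcript, and variants shared a splice junction with one and differed elsewhere. All 8 had such transcripts, each gene in a single locus, out of 7360 gene names and 7271 named loci that met the same condition. The series covers pectoralis major, the breast muscle, of RBC2 turkeys, a random-bred line, at 22 weeks of age. It has 4 samples of normal meat, which took up much marinade a day after slaughter, and 4 of pale, soft and exudative (PSE) meat, which took up little. All birds shared line, age and husbandry, and RNA came from frozen whole muscle.

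The deposited count table gives 8 columns of reads per locus without column names. No header or label ties a column to a sample or to a kind of meat, so columns are numbered only by their place in the table, no column is called normal or PSE, and no test between the 2 kinds of meat was made. What can be compared is one gene with another inside the same column, and one gene over the 8 columns. Column totals ran from 7389830 to 12066951 counts. In bulk muscle, fewer cells of a type and less RNA per cell cannot be told apart.

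Glycolysis splits glucose into pyruvate in the cytosol and yields ATP without oxygen. White breast muscle of galliform birds relies on it for short bursts of work. Hexokinase traps glucose in the cell as glucose-6-phosphate, phosphofructokinase makes the committed and most tightly regulated step, and pyruvate kinase makes the last ATP of the pathway. After slaughter the same reactions go on until lactate accumulates and the pH falls, and a fast fall in warm meat is the classic setting of PSE. Several steps have more than one gene, with one form typical of skeletal muscle and others typical of brain, liver or other tissues.

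Among the 8 genes, PKM2 and PFKM had the highest levels. Levels of a gene are given as CPM, its counts scaled to a column total of 1e6, and between genes as CPM per kb of assembled exon. On that scale PKM2 had a median of 9130 over the 8 columns and stood 3rd of the 7271 named loci. PFKM, the muscle form of phosphofructokinase, followed with 4641 and stood 9th. GPI had 1004 and stood 34th, and ALDOC had 180 and stood 210th. HK1 and HK2 had 69.4 and 64.0 and stood 551st and 609th. PFKP and PFKL, named for the platelet and liver forms, had 4.43 and 2.65 and stood 5223rd and 6177th. The median of the 8 genes was 124, against 8.90 for all named loci, and the last pair was below that median. Together the 8 loci took 3.91% of all counts, between 3.55 and 4.36% by column.

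**Figure D1:**
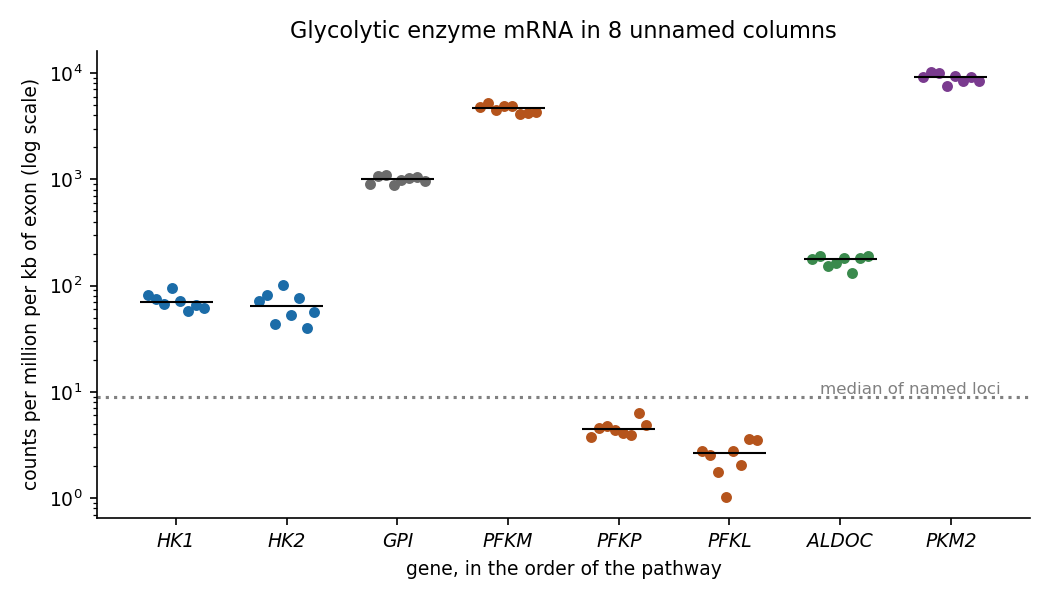
CPM per kb of assembled exon (log axis) for the 8 genes in pathway order. Each point is 1 of the 8 unnamed columns, the bar is their median, and the dotted line is the median of all named loci at 8.90. PKM2 and PFKM lie highest, and PFKP and PFKL lie below the dotted line.

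The order of the 8 genes was nearly the same in every column. From PKM2 down to PFKL, each gene exceeded the next in 8 of 8 columns, and the ranges over columns did not overlap, with a single exception. HK1 exceeded HK2 in 5 of 8 columns, and their ranges overlapped. The ranges of PFKP and PFKL were only narrowly apart. The lowest PFKP level was 3.78 CPM per kb (column 1), and the highest PFKL level was 3.61 (column 7). That PFKL value rests on 34 counts, with an exact Poisson interval of 23.5 to 47.5, so this gap is not beyond counting error. The gap between these ranges was not recomputed with other lengths. The place of HK1 below ALDOC rests on the length correction: by raw counts HK1 exceeded ALDOC in 8 of 8 columns.

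Hexokinase opens the pathway, HK1 as the widely expressed form and HK2 as the insulin-responsive form of muscle and fat in mammals. HK1 counts per column were between 3011 and 5962, with a median of 4110. Per kb its level ran from 57.5 (column 6) through a median of 69.4 to 94.7 (column 4). HK2 had 849 to 2510 counts with a median of 1317, and a level per kb of 40.3 (column 7), 64.0 (median) and 101 (column 4). Both genes were highest in the same column, and HK2 covered the wider range. The ratio of HK2 to HK1 per kb was lowest in column 7 at 0.611, had a median of 0.894 and was highest in column 6 at 1.34. HK2 was the higher one in columns 2, 4 and 6. Its share of the hexokinase level per kb was 37.9 to 57.2%, with a median of 47.2%.

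**Figure D2:**
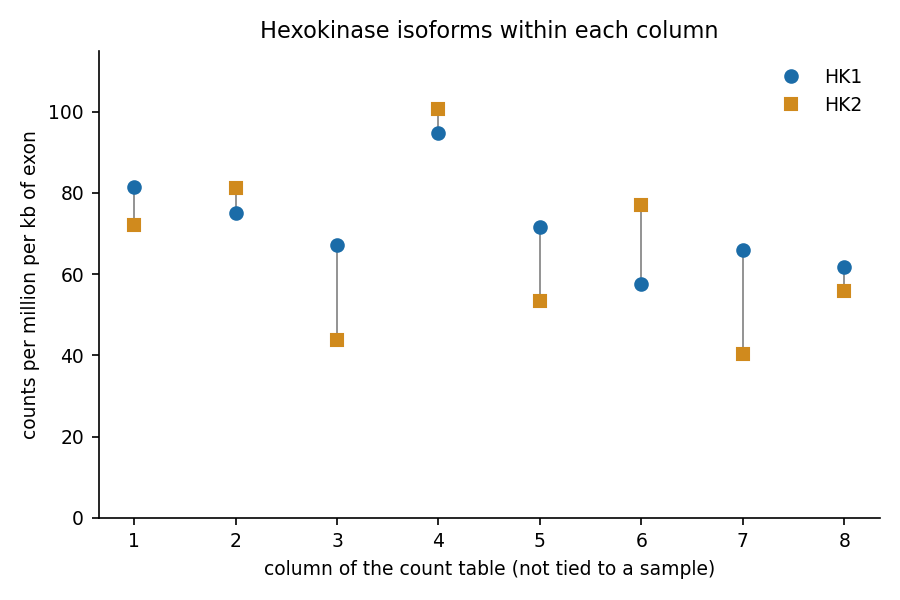
Level of HK1 (circles) and HK2 (squares) in CPM per kb of exon, by unnamed column, with a line joining the values of a column. The squares lie above the circles in columns 2, 4 and 6, and the widest gaps the other way are in columns 3 and 7.

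That near balance rests on the length used for HK1. By raw counts HK2 held 19.2 to 34.2% of the hexokinase reads and stayed below HK1 in every column. One last exon of 4130 bases made up most of the 6590 exon bases of HK1, while the HK2 model ended in an exon of 166 bases. The span of HK1 also held 11 loci on the opposite strand, all sharing bases with HK1 exons, 2137 bases in all or 32.4% of its exon length. These loci carry the name SLC25A16, a mitochondrial carrier, are classed as intronic and had 840 counts together. Singly they had from 0 to 405 counts, against 33515 for HK1. Whether reads on bases covered by more than 1 locus were counted is not stated. With those bases left out of the length, HK1 had 103 CPM per kb and the HK2 share had a median of 37.7%. HK2 was then above HK1 in 0 of 8 columns. All HK1 reads were kept and HK2 had 0 shared bases, so this change could only lower the HK2 share. With the longest single transcript as the length, HK2 was above HK1 in 1 of 8.

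The gene models of the hexokinases showed the internal repeat for which these enzymes are known, each protein being built of a pair of similar domains. HK2 lay on the unplaced scaffold GL429737.1 from 77550 to 84527, plus strand, with an exact match and a variant of 16 exons each. In the exact match, exons 2 to 7 measured 120, 96, 100, 184, 156 and 234 bases, and exons 10 to 15 repeated these 6 lengths in the same order. HK1 lay on chromosome 8 from 12263343 to 12292499, plus strand, in 2 variants and 1 contained transcript of 9 or 10 exons. One variant covered a first stretch of 9 exons and the contained transcript a second stretch of 9 exons, 601 bases further on. The second stretch held all 6 lengths in the same order, and the first held them up to 156 bases and then ended in an exon of 247. Aligned over 7 places, the 4 copies had the same exon length at 5 places and differed by at most 13 bases at both ends of the run.

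The third HK1 transcript, of 10 exons, joined the stretches. Its 4th exon, the 120-base exon of the first stretch, was spliced over an intron of 7466 bases to the 96-base exon of the second stretch. It matched 3 exons of the first stretch and 5 of the second base for base, and it left out 8 exons with 1213 bases. The place of the jump is the same place in the repeat on both sides, so the joined chain still reads as 1 unbroken copy of the repeated set. The HK2 variant differed from the exact match inside the gene only at exons 13 and 14, which measured 191 and 149 bases in place of 184 and 156. The intron between them was shifted by 7 bases and kept its length of 158. Both forms are known here only as assembled models. No read support per transcript was given, so whether either form occurs in the muscle, and how often, was not tested.

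**Figure D3:**
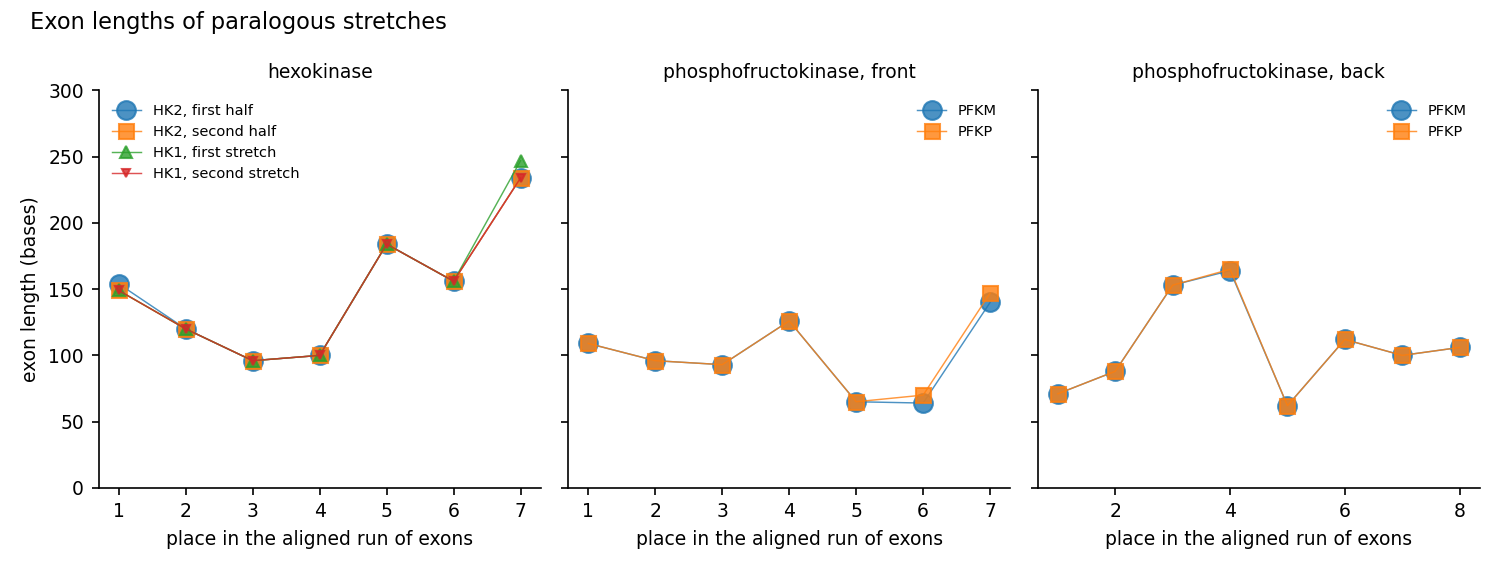
Exon length in bases against place in the aligned run, for the 4 copies of the hexokinase set (left) and for the front and back stretches of PFKM and PFKP (middle and right). Points that lie on each other are exons of equal length, as at 5 of 7, 5 of 7 and 7 of 8 places.

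GPI turns glucose-6-phosphate into fructose-6-phosphate and was the sole enzyme of its step. It had 27073 to 49278 counts with a median of 30890. The lowest column had 3343 CPM, the median was 3824 and the highest column had 4153, a ratio of 1.24 between the extremes. On the log2 scale (with 0.5 added to each value) that range was 0.31. Of the 7070 named loci with a mean of at least 1 CPM, 4.72% had a smaller range, and their median was 0.73. Only 21 named loci lay within 2 times the mean level of GPI. Of those, 9.52% had a smaller range, and their median was 0.51. The locus lay on chromosome 13 from 10919961 to 10939633, plus strand. It held an exact match of 15 exons and a variant of 17, which had exons 2 to 14 in common base for base. The variant began later in exon 1 and, after a shorter exon 15, went on to 2 more exons. A pair of single-exon transcripts without a gene name, downstream of GPI were counted in the same locus. With their bases in the length, the level of GPI per kb was 461 in place of 1004. The place of 34th and all ratios of GPI to other genes per kb use the shorter length. With exons of every class as the length, the percentile of GPI among named loci was 99.2 in place of 99.5.

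Phosphofructokinase was almost wholly PFKM. PFKM had 85506 to 168058 counts with a median of 105622. Its lowest level was 11005 CPM in column 6, its median 12405 and its highest 13927 in column 2. PFKM made 99.8 to 99.9% of the phosphofructokinase level per kb in every column. Its ratio to PFKP per kb was between 664 and 1262, and its ratio to PFKL between 1164 and 4713, the upper end resting on the few PFKL reads of column 4.

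PFKP had 105 to 184 counts per column with a median of 123. The lowest level was 12.8 CPM in column 1, the median 14.9 and the highest 21.4 in column 7, and the column next below column 7 had 16.5. The summed level of the 4 fibroblast markers with a locus, of 5 listed (COL1A2, COL3A1, DCN and LUM, collagen and matrix genes) was also highest in column 7, at 7102 CPM, against 708 to 2723 elsewhere. The leukocyte and macrophage markers, 5 of 5 listed, together had 166 there and 74.4 to 135 elsewhere. CD74 made up most of that sum, at up to 131 CPM. The endothelial markers, 3 of 4 listed, had 180 there and 96.4 to 164 elsewhere. PTPRC, C1QA, C1QB and the endothelial KDR were not highest in column 7. Nor were the summed fat cell (2 of 3 listed) or muscle fibre markers (9 of 17), or the red blood cell marker SLC4A1. They had 127, 25709 and 7.77 CPM there, and 170, 29518 and 8.66 in column 8. The part of any of these markers in the PFKP level was not tested.

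PFKL had the fewest reads, 10 to 35 per column with a median of 26. Column 4 was the lowest with 10 counts, for which the exact Poisson 95% interval is 4.8 to 18.4, and column 2 had 35 (24.4 to 48.7). These intervals cover counting error only. As CPM these counts were 1.18 in column 4, 3.03 at the median and 4.13 in column 7. PFKP exceeded PFKL per kb in 8 of 8 columns, by 1.37 to 4.20 times.

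Over the 8 genes, 22 transcripts were used, of which 4 were exact, 9 contained and 9 variant. Of these, 21 were credited to source assemblies with names from RON1 to RON4 and 1, in PFKL, to ROP2. These names are close to but not spelled as those of the samples. The split over all transcripts of the annotation was not counted, so this split cannot be read as a trait of these genes.

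The 3 phosphofructokinase loci were assembled to very different extents. PFKM lay on the unplaced scaffold GL426198.1 from 20381 to 26309, plus strand, as 2 variants and 2 contained fragments in 3 separate stretches with 20 exon blocks. Its exons filled 45.1% of the span. PFKP lay on chromosome 6 from 11190686 to 11233364, plus strand, as 3 variants and 4 contained fragments, and its longest chain had 19 exons. It was the only gene of the 8 with transcripts credited to 2 reference transcripts, and its exons filled 7.91% of the span. PFKL lay on chromosome 11 from 3913384 to 3918162, plus strand, as 2 contained fragments of 3 exons each. An exact match was found for none of the 3. The most abundant of them was in pieces, while the scarcer PFKP had a chain of 19 exons. Exons of other loci covered 854 of the 3375 exon bases of PFKP and 207 of the 2673 of PFKM.

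PFKM and PFKP kept matching exon lengths in spite of their different introns. Exons 4 to 8 of the longest PFKP chain and 5 consecutive PFKM exons measured 109, 96, 93, 126 and 65 bases in both genes. Exons 11 to 18 of PFKP had lengths of 71, 88, 153, 165, 62, 112, 100 and 106 bases. The matching PFKM exons had the same lengths at 7 of 8 places, the other being 164 bases long. Of the PFKL fragments, a 106-base exon before the last exon stood at the same place as in the other genes. The longest intron of that PFKP chain was 6702 bases, against 298 in the PFKM transcripts.

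**Figure D4:**
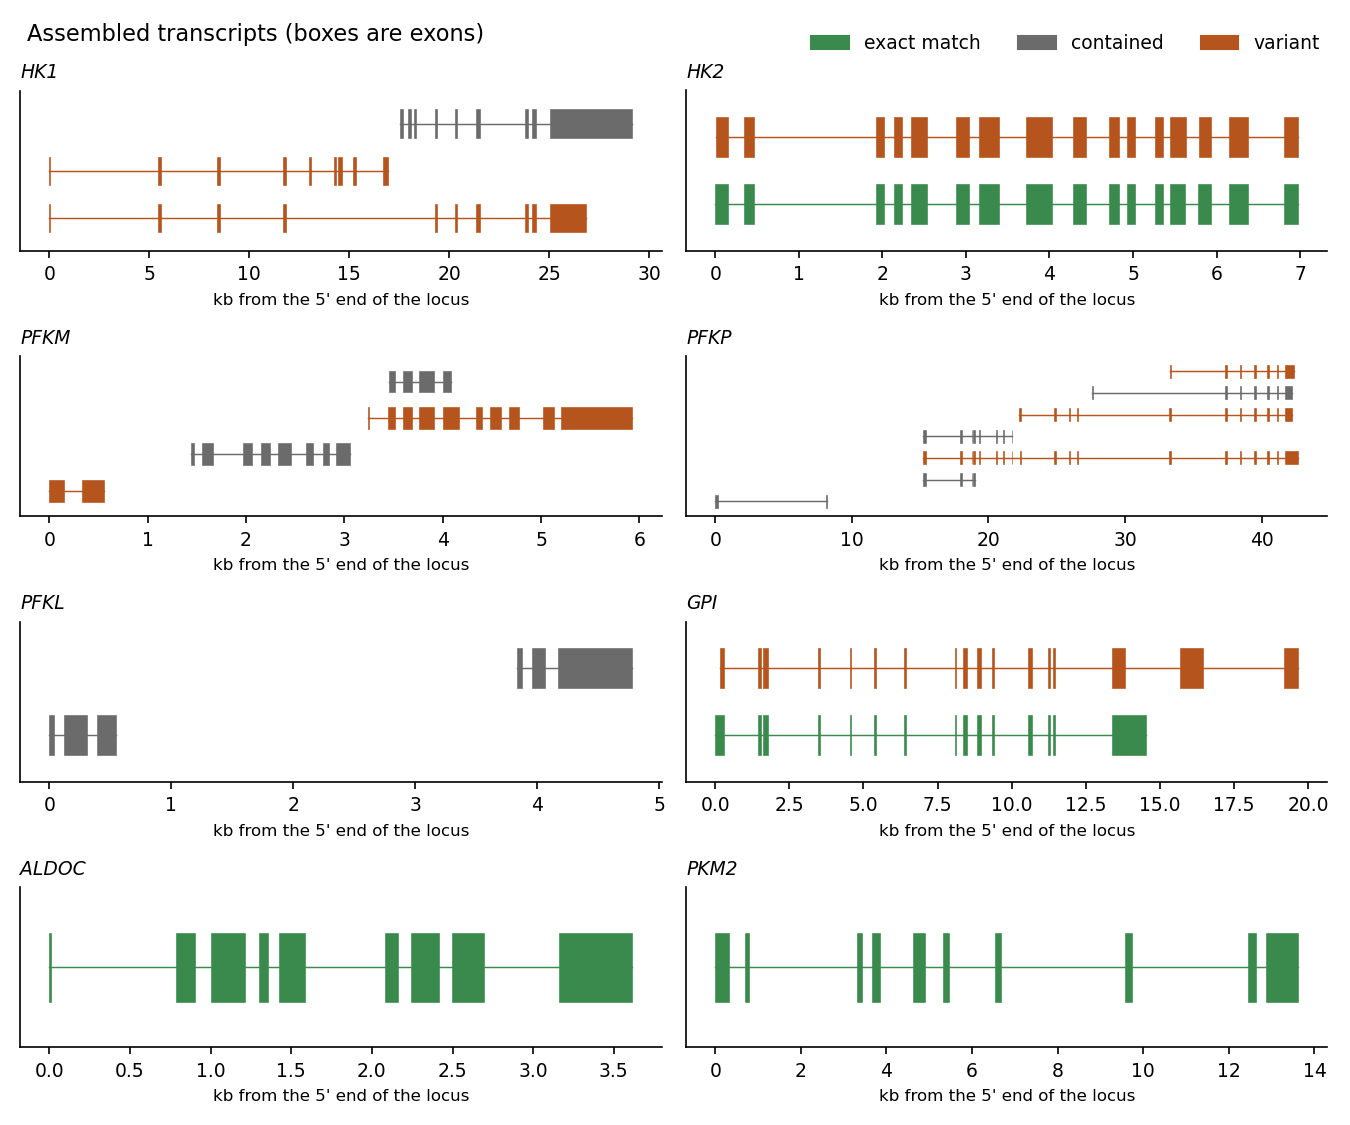
Assembled transcripts of the 8 genes, with boxes for exons and lines for introns, against distance in kb from the 5′ end of the locus. Green marks exact matches, grey contained fragments and orange variants. PFKM, PFKL and PFKP lack green transcripts, as does HK1, and the HK1 transcript drawn lowest joins both stretches.

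Aldolase cleaves fructose-1,6-bisphosphate. ALDOC is known as the brain form in mammals, and ALDOA, the muscle form of mammals, stood on no transcript under that name. ALDOC had 1559 to 3364 counts with a median of 2175. Its level was 194 CPM in column 6, 265 at the median and 279 in column 8. Column 6 was the lowest, and the other 7 columns lay between 227 and 279. Per kb GPI exceeded ALDOC by 5.09 to 7.77 times, and ALDOC exceeded HK1 by 1.72 to 3.06 times. The locus on chromosome 21 from 6173903 to 6177517, minus strand, held 1 exact match of 9 exons and nothing else.

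Pyruvate kinase turns phosphoenolpyruvate into pyruvate. PKM2 had 149996 to 297117 counts with a median of 181010. The level was 17988 CPM in column 4, 21994 at the median and 24622 in column 2. Its level per kb exceeded that of PFKM by 1.53 to 2.24 times, that of GPI by 8.20 to 10.1 times and that of HK1 by 78.9 to 150 times. The locus on chromosome 12 from 866521 to 880143, minus strand, held a single exact match of 10 exons. In mammals this gene has a pair of exons of equal length that are used one at a time and give the M1 and M2 forms. The turkey transcript had a single exon of 167 bases, its 8th, between introns of 2895 and 2703 bases, and no second exon was assembled in either intron. The symbol PKM2 names the gene here and does not say which form was made.

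The genes differed in how far they moved over the 8 columns. PFKL and HK2 had the widest log2 ranges, 1.46 and 1.32, and GPI and PFKM the narrowest, 0.31 and 0.34. The ranges of PKM2, ALDOC, HK1 and PFKP were 0.45, 0.52, 0.72 and 0.72. The range was below the median of named loci in 6 of the 8, with HK1 and PFKP only just below it. Against named loci within 2 times its own mean level, a gene's range was below the median in 4 of the 8, namely GPI, PFKM, PFKP and ALDOC. PFKP was only just below, at 0.722 against 0.724, and GPI and PFKM had only 21 and 9 such loci. For HK1, 63.8% of 298 such loci had a smaller range, and PKM2 had only 6 such loci. For HK2, 91.3% of 965 such loci had a smaller range, and their median was 0.55. For PFKL the share was 75.1% of 1122 loci with a median of 1.09, so at its low level a wide range was common. The 8 genes did not all rise and fall together. Over the 28 pairs, Pearson's r of log2 CPM across the 8 columns was between -0.65 (HK2 and PFKP) and 0.74 (GPI and PKM2). It was above 0 in 15 pairs and below 0 in 13. Other sets of named loci were not compared in this way, so the split has no background.

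**Figure D5:**
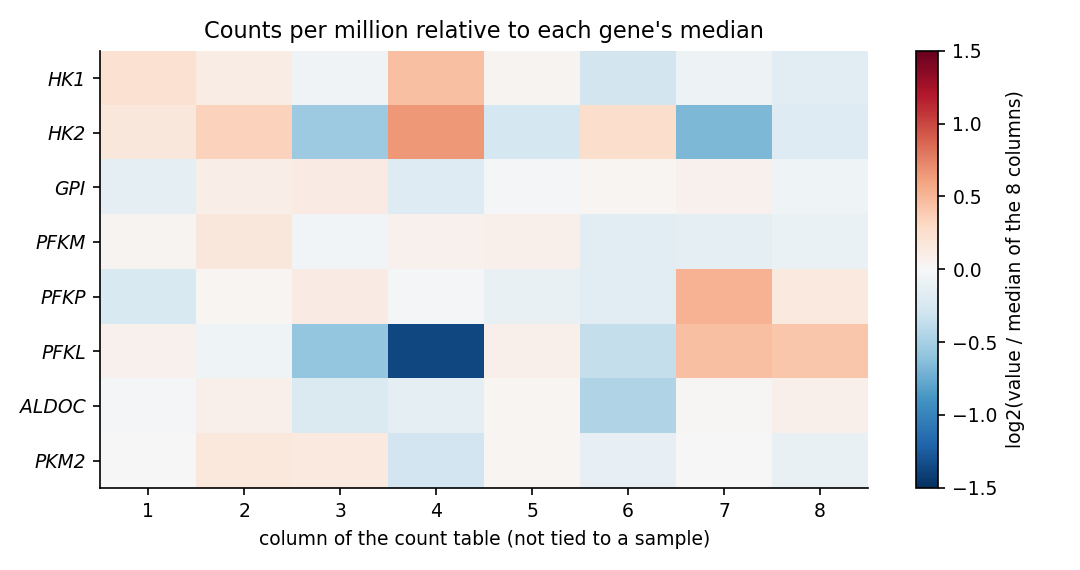
CPM of each gene in each unnamed column, as log2 of the ratio to the gene's median over the 8 columns (red above, blue below). HK2 and PFKL have the strongest colours, and GPI, PFKM and PKM2 stay pale.

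The loci with the most similar profile were named for each gene as the best of 7069 others by Pearson's r over the 8 columns, as a description only. HK1 was nearest to TBX21 (r = 0.99) and RNF123 (0.98), and HK2 to AKAP1 (0.97) and CIRH1A (0.96). GPI was nearest to C6ORF35 (0.97) and HPS3 (0.95), PFKM to ARPP21 and LIMCH1 (0.92 and 0.91), and PKM2 to WEE1 (0.97) and GPATCH3 (0.94). PFKL was nearest to SPRED2 (0.98) and SUZ12 (0.97), PFKP to ATP1B3 (0.98) and ITGA11 (0.98), and ALDOC to SPTAN1 (0.96) and MAK (0.94). The ALDOC and SPTAN1 value dropped to 0.69 without the 2 columns farthest from the ALDOC median. The scarcest of these loci, WEE1, TBX21 and GPATCH3, had medians of only 2.13, 2.75 and 3.12 CPM. The best of 7069 loci over 8 columns is high by selection.

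Of 35 other genes of glycolysis and its branches, 14 had a locus under their symbol. The highest per kb was PGM1, which links glycogen to glucose-6-phosphate, with a median of 2172 and a range over columns of 1935 to 2392. GPD1, the cytosolic glycerol-3-phosphate dehydrogenase, had 971, and FBP2, the muscle fructose-1,6-bisphosphatase, had 923 on only 123 assembled bases. BPGM, which makes 2,3-bisphosphoglycerate, had 365. ENO1, an enolase, had 122 in a locus that also carries GPR157. The other 9, from GPD2 at 118 down to ENO2 at 0.95, included the bifunctional regulators of phosphofructokinase PFKFB3 (16.0), PFKFB4 (3.86) and PFKFB2 (2.22), the monocarboxylate transporters SLC16A1 (37.2) and SLC16A3 (7.05), the glucose transporter SLC2A1 (3.78) and ADPGK (12.1). The median of the 14 was 26.6. PGM1 stood between PFKM and GPI.

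The locus with the highest level of all carries the label G3P_MELGA, which has the form of a UniProt entry name, where G3P stands for glyceraldehyde-3-phosphate dehydrogenase. It was singled out after its value was seen. It had 8.97% of all counts and a median of 69114 CPM per kb, with a range of 63527 to 84065, on chromosome 1 from 80600573 to 80604094, plus strand. The symbols GAPDH, TPI1, PGK1, PGAM1, LDHA and ENO3 stood on no transcript, and LDHB only on other classes, so those steps were not analysed here.

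Several muscle genes were among the most abundant loci, but not every muscle marker was. The fast troponin TNNI2 stood 6th of the named loci with 6685 CPM per kb, and 9 of the 17 muscle fibre symbols had a locus, with a summed level of 23117 to 29518 CPM by column. The slow and cardiac troponin gene TNNC1 had a median of 2279 per kb, while the slow troponin gene TNNI1 had 2.17. Parvalbumin (PVALB), a calcium buffer of fast fibres, had 6.22, below the median of named loci, and myoglobin (MB), the oxygen store of red fibres, stood 3142nd of the named loci. All 8 muscle symbols without a locus, ACTA1, CKM, TTN and TNNC2 among them, and the neural and liver symbols of the marker list stood on no transcript used here. A missing symbol does not mean a missing gene. A locus labelled TNNC2_MELGA, a label of the same form as G3P_MELGA, stood 2nd of the named loci with 11286 CPM per kb.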

How the data were processed

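Transcripts of turkey breast muscle were sequenced in 4 normal and 4 PSE samples (Illumina GAIIx, 2 samples per lane per the series text). The submitters' processing notes name TopHat, Cufflinks, HTSeq and DESeq with no version or role, and no genome build is given in the sources used here. The authors deposited whole-number read counts per locus in 8 columns without names, and a merged transcript annotation with the class of each transcript against a reference. Column totals were 7389830 to 12066951 counts, and 0 other value columns were left unused. Chromosomes and positions are those of the deposited annotation.

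Because nothing ties columns to samples, the comparison of PSE with normal meat was not made, and the columns were not grouped. Counts were scaled to a column total of 1e6 (CPM) and divided, between genes, by the kb of the union of exons of classes exact (=), contained (c) and variant (j) in the locus. Ranges over columns used log2 of CPM plus 0.5. Poisson intervals are exact at 95%. No sequence is shown, since none was given for these genes. The genes and lists were chosen with earlier results of these data known. Named were all 8 genes, every other listed gene with a locus by range and the 5 highest of them by value, and the 2 loci most correlated with each of the 8. The remaining 9 listed genes were named in addition. The alternative scaling and the search for similar profiles were tested on simulated data. Exon unions, overlaps, runs of equal exon length and the gap of Dixon's test were tested on short made-up inputs. Shares, ratios and ranks were not tested in this way. Alternatives covered the length, the scaling, the classes, the background and the pseudocount, and each column left out. Python 3.11.15, pandas 2.3.3, NumPy 2.4.6, SciPy 1.17.1 and matplotlib 3.10.9 were used.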

Additional observations from a re-analysis of the deposited data

Results flagged for a closer look

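PFKP had 1 column apart from the others: column 7 with a level of 21.4 CPM, where the next had 16.5. That gap is 0.565 of the whole range over the 8 columns, above the 95% critical value of Dixon's test for 8 values. Chance alone passes that limit in about 1 in 20 sets of values, and 8 genes were looked at. The 8 columns hold samples of both kinds of meat, so they are not replicates of a single group.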

How the results depend on the processing

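Of 164 values recomputed under the alternatives, 140 were classed as unchanged and 24 as moved. Many of the 140 were medians with 1 column left out, which can shift only to a neighbouring central value. All of those stayed unchanged. Exons of every class left the lengths of HK1 and HK2 as they were, so the 140 does not measure robustness. The cut was narrower than the range over columns: a PFKP share of 0.117% counted as moved, within a reported range of 0.0791 to 0.150%. Counts of transcripts have no spread over columns. The median HK2 share of the hexokinase level, 47.2%, was 25.8% with no length correction and 37.7% without bases shared with other loci. HK2 was above HK1 in 3 columns, but in 1 with the longest single transcript as the length, in 0 with no length correction and in 0 without shared bases. The median PFKP share of phosphofructokinase, 0.0924%, was 0.0640% with the longest transcript and 0.117% with no length correction. With no length correction HK1 also passed ALDOC, at percentiles of 98.0 and 95.9 among named loci in place of 92.4 and 97.1. The length without shared bases, and the GPI level per kb over exons of every class, were chosen after seeing the data. Leaving the 100 largest loci out of the column totals raises the CPM of every remaining gene. The median CPM of HK1 was then 875 in place of 457, and that of HK2 328 in place of 164. The log2 range of PFKL was 0.56 with 5 added in place of 0.5, against 1.46. No paired analysis was possible because the columns carry no replicate number. The planned comparison of PSE with normal meat and its alternatives (another test, no filter on low counts, the replicate block, each replicate left out) were not run. PFKL, with 200 counts in all, is limited by depth.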

Other observations

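Among the other glycolysis genes, PFKFB3, which makes the activator fructose-2,6-bisphosphate, was singled out because it had the widest range over the columns, 2.95 on the log2 scale or 8.21 times. Its level in columns 1 to 8 was 28.1, 39.8, 55.5, 30.5, 12.2, 10.1, 8.14 and 6.77 CPM. Nothing given ties the place of a column to its sample, so these values were not read by kind of meat.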
